A study of Arabidopsis thaliana with 18 samples.

Results

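A set of 9 genes that encode enzymes of sterol and brassinosteroid synthesis were followed in Arabidopsis thaliana seedlings treated with coronatine or DPAM-1 and then with salt. They were taken by their gene codes: SMT1 (AT5G13710), DWF7 (AT3G02580), DWF5 (AT1G50430), DWF1 (AT3G19820), DWF4 (AT3G50660), CPD (AT5G05690), DET2 (AT2G38050), ROT3 (AT4G36380) and BR6OX2 (AT3G30180). All 9 codes were among the 14229 genes of the count table, and the smallest count of any of them in a library was 78 reads.

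Transcripts of whole Col-0 seedlings in liquid medium were counted from their 3′ ends by Lasy-Seq, in 18 libraries forming 6 groups of 3. The groups were 1% DMSO, 5 µM coronatine and 5 µM DPAM-1, each without salt and with 100 mM NaCl. Compounds were given at 4 days after germination, NaCl 16 h later, and plants given NaCl were harvested 2 h after it. Coronatine is a bacterial toxin that mimics the active form of jasmonate. DPAM-1 is a compound given only by its code name. No solvent is named for the compound groups, and no mock addition or harvest time for the groups without NaCl, so effects of these cannot be told apart from those of compound and salt. The libraries are not said to be separate cultures, so p-values measure the spread between libraries, which may be technical.

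Plants make membrane sterols from mevalonate by way of squalene and cycloartenol. One sterol, campesterol, is then converted by a reductase and by cytochrome P450 enzymes into brassinolide, the most active brassinosteroid. Brassinosteroids drive cell elongation in seedlings, and mutants in these 9 genes include dwarfs. The hormone represses several of its own synthesis genes through the transcription factors BZR1 and BES1, so their transcript levels are often read as a gauge of the pathway.

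Library totals lay between 13638981 and 37279056 reads. Levels are given as CPM, read counts relative to the scaled library size, and are compared only between groups for the same gene. A gene was called at an adjusted p under 0.05 over all 14229 genes (edgeR quasi-likelihood F test, Benjamini-Hochberg). All 5 jasmonate marker genes rose with coronatine, their summed level lying between 12420 and 14460 CPM against 478 to 516 CPM in DMSO. All 4 salt marker genes in the table rose with NaCl in each pretreatment. Both green shoot and root tissue markers were present. The summed level of 9 root markers was 4556 to 5270 CPM with coronatine against 2267 to 2320 CPM in DMSO, with 5 higher and 2 lower, and most of that sum was PYK10. Of 7 green shoot markers 3 were higher and 1 lower in that comparison, where 17.4% of all genes were higher and 17.4% lower. Whether a shift in tissue makeup had a part in the coronatine results was not tested. In whole seedlings, fewer cells of a type and less RNA per cell cannot be told apart.

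DET2, a steroid reductase between campesterol and the later brassinosteroid steps, rose with coronatine and rose further when NaCl followed. Its level in the 3 DMSO libraries was 19.3, 20.9 and 17.0 CPM, and with coronatine 55.8, 46.8 and 44.3 CPM. In DMSO with NaCl it was 22.4, 18.8 and 24.1 CPM, and in coronatine with NaCl 84.2, 91.4 and 93.6 CPM. With DPAM-1 it was 19.3, 22.8 and 22.3 CPM, and in DPAM-1 with NaCl 23.7, 26.7 and 24.2 CPM. Every coronatine library stood above every library of the 4 other groups, and the coronatine groups with and without NaCl did not overlap. The 4 groups without coronatine overlapped with their neighbours in order of level. Between the lowest and the highest group mean the level differed 4.70-fold, more than for any of the other 8 genes.

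Against DMSO, DET2 rose 2.57-fold with coronatine (log2 fold change 1.36 ± 0.11 SE, adjusted p = 3.72e-10), and 4.11-fold under NaCl (2.04 ± 0.11 SE, adjusted p = 1.27e-13). Salt after coronatine raised it 1.83-fold (0.87 ± 0.10 SE, adjusted p = 1.48e-06). In DMSO the NaCl difference was 0.19 (adjusted p = 0.252) and after DPAM-1 it was 0.20 (adjusted p = 0.283). The coronatine effect was larger under NaCl than without it by 0.68 ± 0.15 SE on the log2 scale (95% interval 0.36 to 0.99, adjusted p = 0.011). The salt effect after coronatine exceeded that after DPAM-1 by 0.67 ± 0.15 SE (adjusted p = 0.0133). DET2 was the only one of the 9 genes to pass in the interaction of coronatine with NaCl, where 3.84% of all genes passed and 1.67% were higher. It was also the only one to pass in the comparison of the salt effects after coronatine and after DPAM-1, where 4.04% did and 2.28% were higher.

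**Figure D1:**
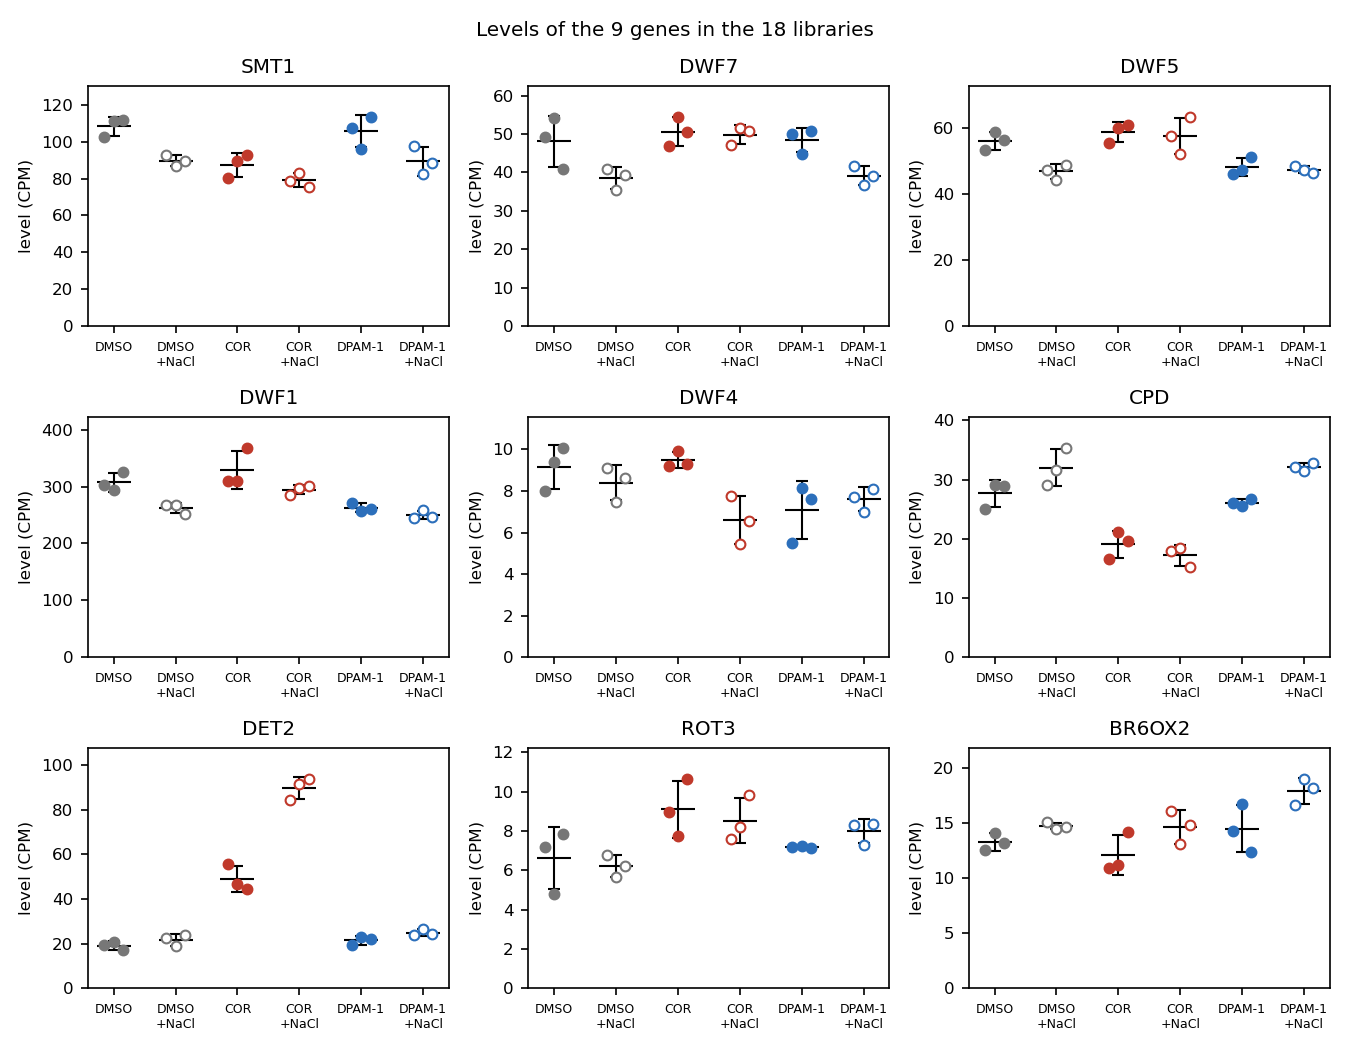
Levels of the 9 genes in CPM (vertical axes, from 0) in each of the 18 libraries, grouped by treatment along the horizontal axis (COR is coronatine), with filled points without NaCl and open points with NaCl; the black line is the mean and the bar 1 SD (n = 3). DET2 reaches 84.2 to 93.6 CPM in coronatine with NaCl, CPD is lowest in both coronatine groups, and the other genes vary less.

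CPD, a cytochrome P450 of the same branch whose gene is repressed by the hormone, fell with coronatine. It stood at 25.1, 29.2 and 28.9 CPM in DMSO and at 16.6, 21.1 and 19.6 CPM with coronatine. In DMSO with NaCl it stood at 29.2, 31.7 and 35.3 CPM, and in coronatine with NaCl at 17.98, 18.5 and 15.2 CPM. DPAM-1 libraries held 26.0, 25.6 and 26.7 CPM without NaCl and 32.1, 31.5 and 32.8 CPM with it. All 6 coronatine libraries were below the 12 others. The fall was 1.46-fold without NaCl (log2 fold change -0.54 ± 0.11 SE, adjusted p = 0.000256) and 1.86-fold under NaCl (-0.89 ± 0.11 SE, adjusted p = 1.98e-07). The difference between these 2 values did not pass (-0.35, adjusted p = 0.215). NaCl differences of CPD were 0.21 in DMSO (adjusted p = 0.178), -0.14 after coronatine (adjusted p = 0.35) and 0.30 after DPAM-1 (adjusted p = 0.0677), and none passed. The last of these passed with only the groups compared (0.0211). The salt effect on CPD after coronatine against that after DPAM-1 was -0.44 (adjusted p = 0.109). It passed with library totals (0.0474) and without coronatine replicate 1 (0.0494).

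The sequences just before the start of these 2 genes are shown because DET2 and CPD, the members with the widest range of levels, moved in opposite directions under coronatine. Each is the 250 bases upstream of the annotated start in RefSeq's TAIR10.1 release, 5′ to 3′ on the gene's strand. Capitals mark the hexamer CACATG or its reverse complement CATGTG, an E-box-type hexamer.
DET2, chr2:15922322-15922571, minus strand: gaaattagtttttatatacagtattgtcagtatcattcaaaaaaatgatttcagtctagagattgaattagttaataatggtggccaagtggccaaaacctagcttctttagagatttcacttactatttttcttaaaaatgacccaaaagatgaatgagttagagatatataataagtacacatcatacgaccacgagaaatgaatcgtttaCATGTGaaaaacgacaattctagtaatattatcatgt
CPD, chr5:1706949-1707198, minus strand: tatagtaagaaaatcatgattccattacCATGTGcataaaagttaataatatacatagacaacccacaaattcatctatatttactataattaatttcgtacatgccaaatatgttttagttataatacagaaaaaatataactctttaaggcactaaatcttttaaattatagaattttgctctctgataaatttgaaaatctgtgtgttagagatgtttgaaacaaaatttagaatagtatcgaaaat
Both windows held 1 CACATG, counted on both strands. It lay 37 to 32 bases before the start of DET2 and 222 to 217 bases before that of CPD. Of 14104 promoters of the same length, 10.8% held this hexamer. The G-box CACGTG, a kind of E-box, was in 7.59% of promoters and in neither of these. The hexamers CGTGTG and CGTGCG, known as elements bound by BZR1, were in 5.44% and 1.8% of all promoters and in none of the 9 windows of 250 bases. Sequence outside these windows was not searched. DWF5 was the only member with the G-box, which it held at 48 to 43 and at 41 to 36 bases before the start. CACATG was also found in the windows of DWF7, DWF5 and DWF1, while SMT1, DWF4, ROT3 and BR6OX2 held none of the 4 hexamers. A match is a string of letters and not a measured binding site.

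Further P450 genes of the brassinosteroid branch varied less. DWF4 encodes the side-chain hydroxylase regarded as rate-limiting. Its level was 8.01, 9.40 and 10.05 CPM in DMSO, and 9.22, 9.93 and 9.31 CPM with coronatine. It was 7.78, 5.46 and 6.57 CPM in coronatine with NaCl, and these libraries were all below those of coronatine alone. NaCl after coronatine lowered DWF4 1.42-fold (log2 fold change -0.50 ± 0.16 SE, adjusted p = 0.0223). That call ended without coronatine replicate 2 (adjusted p = 0.0578) and without replicate 2 or 3 of coronatine with NaCl (0.102 and 0.0619). In DMSO the NaCl difference was -0.12, and the interaction with coronatine did not pass (-0.39, adjusted p = 0.382). Against DMSO under NaCl, coronatine gave -0.33 (adjusted p = 0.0858). This value passed as lower with upper-quartile factors (-0.50, adjusted p = 0.0111) and with library totals (-0.66, adjusted p = 0.00161). It also passed without replicate 1 of coronatine with NaCl (-0.48, adjusted p = 0.0356). Groups next to each other in order of mean DWF4 level had overlapping library ranges throughout.

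ROT3 encodes a hydroxylase acting late in the branch. It stood at 7.20, 4.82 and 7.84 CPM in DMSO and at 8.98, 7.73 and 10.6 CPM with coronatine, so the groups overlapped. The rise was 1.37-fold (log2 fold change 0.46 ± 0.17 SE, adjusted p = 0.0411), and under NaCl the value was 0.45 ± 0.17 SE (adjusted p = 0.0321). The first call ended without DMSO replicate 2 (adjusted p = 0.249), without coronatine replicate 1 (0.0834) or 3 (0.154), and with upper-quartile factors (0.125) or library totals (0.315). It also ended with only the groups compared (0.127) and without the DMSO and coronatine libraries numbered 3 (0.0586). The second ended without replicate 2 or 3 of DMSO with NaCl (0.105 and 0.0682), without replicate 3 of coronatine with NaCl (0.157), and with those scalings (0.166 and 0.573). CYP90D1, a close relative of ROT3, had a log2 fold change of 0.61 with coronatine (adjusted p = 0.0505) and rose by 0.77 under NaCl (adjusted p = 0.01). The latter call ended without replicate 3 of DMSO with NaCl (0.0547) and with library totals (0.124).

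BR6OX2 encodes the P450 of the last oxidations to brassinolide. Its group means ranged from 12.1 CPM ± 1.83 (SD, n = 3) with coronatine to 17.95 CPM ± 1.17 (SD, n = 3) in DPAM-1 with NaCl. It passed in none of the 12 comparisons. Its coronatine value was -0.14 without NaCl (95% interval -0.41 to 0.12) and 0.00 under NaCl (-0.26 to 0.26). With library totals these were -0.37 (adjusted p = 0.0335) and -0.33 (adjusted p = 0.0382). DPAM-1 against coronatine without NaCl gave 0.26, which passed without coronatine replicate 3 (0.0298) or DPAM-1 replicate 3 (0.0455). It also passed with upper-quartile factors (0.0384), with library totals (0.46, adjusted p = 0.0096) and without the DMSO and coronatine libraries numbered 3 (0.0278). NaCl gave 0.29 after coronatine (adjusted p = 0.0931, 0.0296 without coronatine replicate 3) and 0.31 after DPAM-1 (adjusted p = 0.127, 0.0484 without DPAM-1 replicate 2).

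The 4 genes of the sterol steps differed little between groups. SMT1, the sterol methyltransferase that acts on cycloartenol, stood at 102, 111 and 112 CPM in DMSO and at 80.0, 89.7 and 92.6 CPM with coronatine. It fell 1.24-fold, without overlap (log2 fold change -0.31 ± 0.08 SE, adjusted p = 0.00479). Under NaCl the value was -0.18 (adjusted p = 0.0731, 0.00121 with upper-quartile factors). DWF7, a sterol desaturase, was at 48.1 CPM ± 6.66 (SD, n = 3) in DMSO and 50.6 CPM ± 3.70 (SD, n = 3) with coronatine. DWF5, a sterol reductase, was at 56.0 CPM ± 2.73 (SD, n = 3) and 58.7 CPM ± 2.96 (SD, n = 3), and DWF1, the side-chain reductase that completes campesterol, at 308 CPM ± 16.2 (SD, n = 3) and 329 CPM ± 33.2 (SD, n = 3). None of these 3 passed, with log2 fold changes of 0.07, 0.07 and 0.10.

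Under NaCl, DWF7 and DWF5 were higher with coronatine than in DMSO, by 0.37 ± 0.10 SE (adjusted p = 0.00295) and 0.30 ± 0.08 SE (adjusted p = 0.00385). Both calls rested on the scaling. With upper-quartile factors the adjusted p was 0.0645 for DWF7 and 0.142 for DWF5, and with library totals the values were 0.042 (adjusted p = 0.674) and -0.029 (adjusted p = 0.759). DWF1 was at 0.17 (adjusted p = 0.0549), which passed with RLE factors (0.049), with DESeq2 (0.0406) and with only the groups compared (0.022).

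In all, 2 of the 9 genes rose with coronatine without NaCl (DET2 and ROT3) and 2 fell (CPD and SMT1). Of all genes 34.8% passed in that comparison, 17.4% higher and 17.4% lower. The median log2 fold change of the 9 was 0.07, against -0.01 over all genes. Under NaCl 4 rose and 1 fell, where 47.8% of all genes passed, 23.8% higher and 24% lower. These shares of all genes, without and under NaCl, are those of the main scaling. With upper-quartile factors the counts of the 9 genes were 1 higher and 2 lower without NaCl and 1 higher and 3 lower under it. With library totals they were 1 and 3, and 1 and 4. The median of all genes moved to -0.13 and -0.24 without NaCl under these scalings, and to -0.17 and -0.34 under NaCl. The directions of DET2 and CPD were the same under each scaling. The ranges of the coronatine and DMSO libraries did not overlap for 3 of the 9 genes without NaCl and for 7 under it, against 39.4% and 59.1% of all genes.

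**Figure D2:**
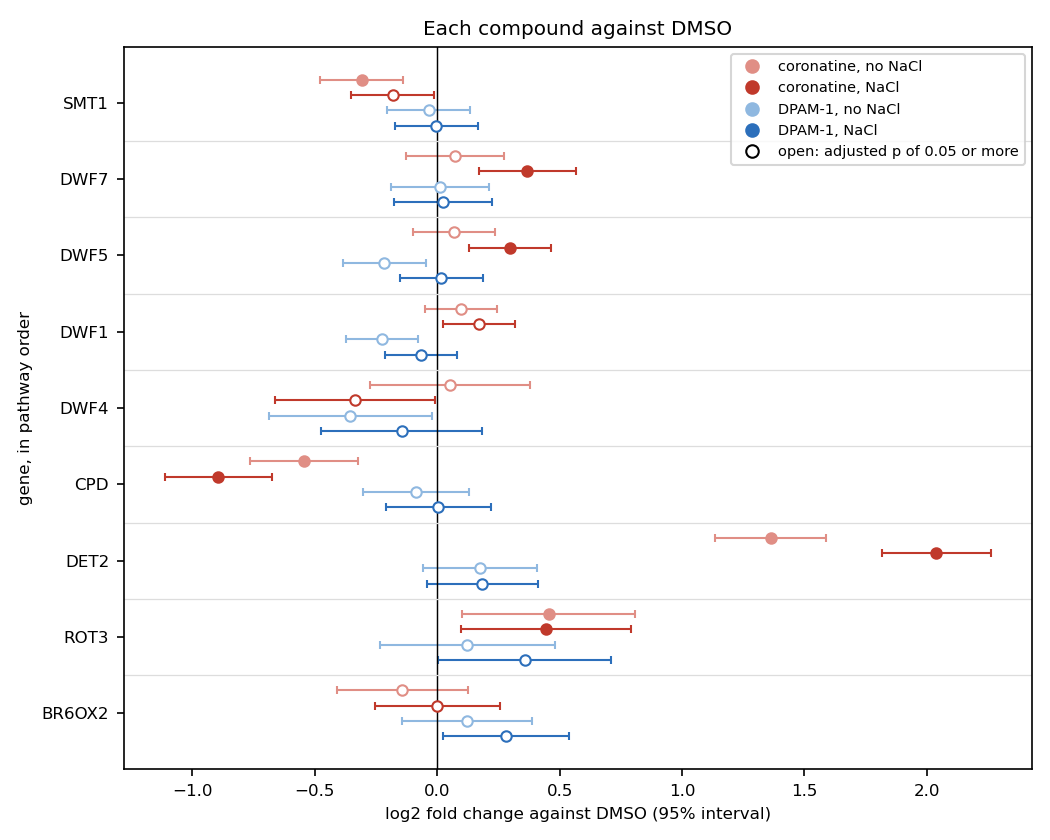
Log2 fold change of each of the 9 genes against DMSO (horizontal axis) with its 95% interval, for coronatine (red) and DPAM-1 (blue), pale without NaCl and dark with NaCl, 3 libraries per group; filled points passed at an adjusted p under 0.05. DET2 lies at 1.36 and 2.04 and CPD at -0.54 and -0.89 with coronatine, and every DPAM-1 point is open.

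None of the 9 genes passed with DPAM-1 against DMSO, without or under NaCl. Of all genes 1.02% passed without NaCl and 0.576% under it. DESeq2 called 0 of the 9 in both comparisons. At an unadjusted p under 0.05 there were 3 without NaCl, where 14.2% of all genes had one, and 2 under it, where 10% did. The 3 were DWF5 at -0.22 (95% interval -0.38 to -0.05, adjusted p = 0.227), DWF1 at -0.23 (-0.37 to -0.08, adjusted p = 0.146) and DWF4 at -0.35 (-0.69 to -0.02, adjusted p = 0.316). DWF5 and DWF1 libraries with DPAM-1 were all below those of DMSO, which makes 2 of 9 genes without overlap where 17.9% of all genes had none. Under NaCl the 2 were ROT3 at 0.36 (0.00 to 0.71, adjusted p = 0.485) and BR6OX2 at 0.28 (0.02 to 0.54, adjusted p = 0.443). These 2 of 9 did not overlap between the groups, against 17.7% of all genes. DET2 was at 0.17 (-0.06 to 0.41) without NaCl and 0.18 (-0.04 to 0.41) under it, and CPD at -0.09 (-0.30 to 0.13) and 0.01 (-0.21 to 0.22). The intervals of all 9 genes lie within a 2-fold change in both directions.

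Compared directly at the same dose, DPAM-1 and coronatine differed for 5 of the 9 genes without NaCl, where 34.9% of all genes did, 17.4% higher and 17.5% lower with DPAM-1. DET2 was lower with DPAM-1 than with coronatine (-1.19, adjusted p = 3.74e-09), as were DWF1 (-0.32, adjusted p = 0.000971) and DWF5 (-0.28, adjusted p = 0.00822). CPD (0.46, adjusted p = 0.0015) and SMT1 (0.27, adjusted p = 0.0114) were higher. The SMT1 call ended without coronatine replicate 1 (adjusted p = 0.08) or DPAM-1 replicate 3 (0.0761). That of DWF5 ended with upper-quartile factors (0.0526) and library totals (0.401), and that of DWF1 with library totals (0.208). DWF4 missed the threshold at -0.41 (adjusted p = 0.0523) and passed with DESeq2 (0.0425) and without DPAM-1 replicate 2 (0.0348). Under NaCl 5 of 9 differed, where 42.4% of all genes did, 20.9% higher and 21.4% lower. DET2 was 3.62-fold lower with DPAM-1 (adjusted p = 1e-12), and DWF7, DWF5 and DWF1 were lower by log2 values of -0.34, -0.28 and -0.24, while CPD was higher by 0.90 (adjusted p = 2.44e-07). Those 3 lower calls ended with upper-quartile factors (adjusted p = 0.0864, 0.16 and 0.32) and with library totals, and that of DWF5 also without replicate 3 of coronatine with NaCl (0.0641). SMT1 at 0.18 and BR6OX2 at 0.28 did not pass, but passed as higher with upper-quartile factors (0.00258 and 0.00921) and with library totals (6.21e-05 and 0.000989), as did DWF4 with library totals (0.0169). The balance of 1 higher and 4 lower therefore became 3 higher and 1 lower with upper-quartile factors and 4 higher and 1 lower with library totals. Without NaCl the balance of 2 higher and 3 lower became 3 and 2, and 3 and 1. The shares of all genes given for both comparisons are those of the main scaling.

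Salt without any compound lowered the 4 genes of the sterol steps. SMT1 stood at 108 CPM ± 5.27 (SD, n = 3) in DMSO and at 89.6 CPM ± 3.06 (SD, n = 3) with NaCl added, with a difference of -0.27 on the log2 scale (adjusted p = 0.0232). DWF7 fell to 38.5 CPM ± 2.86 (SD, n = 3) with -0.32 (adjusted p = 0.0242). DWF5 fell to 46.8 CPM ± 2.28 (SD, n = 3) with -0.26 (adjusted p = 0.0288), and DWF1 to 262 CPM ± 9.17 (SD, n = 3) with -0.23 (adjusted p = 0.0261). The DMSO libraries with and without NaCl did not overlap for any of the 4, though for DWF7 the nearest 2 were both at 40.9 CPM. With BR6OX2, 5 of the 9 genes did not overlap, against 30.9% of all genes. No brassinosteroid-branch gene of the 9 passed, so 4 fell and 0 rose, where 17.7% of all genes passed, 9.8% higher and 7.88% lower. All 4 calls stood close to the threshold. Only 1 remained without DMSO replicate 2 or 3, or without replicate 2 or 3 of DMSO with NaCl, and the adjusted p of the lost calls then ran from 0.0527 to 0.125. That of DWF7 also ended without DMSO replicate 1 (0.072) and that of DWF5 without replicate 1 of DMSO with NaCl (0.06).

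After coronatine, NaCl raised DET2 and lowered DWF4 among the 9, where 26.8% of all genes passed, 14.7% higher and 12.1% lower. The 4 sterol-step genes did not pass there, with values from -0.16 to -0.02. With upper-quartile factors DWF1 passed at -0.21 (adjusted p = 0.0356), and with library totals DWF1 (-0.27, adjusted p = 0.0167) and SMT1 (-0.25, adjusted p = 0.0308) did. After DPAM-1 only DWF7 passed, at -0.31 ± 0.10 SE (adjusted p = 0.0419), where 12.2% of all genes did, 6.92% higher and 5.33% lower. It was lost with the replicate block (0.054) and without any of 5 libraries, DPAM-1 replicates 1 (0.125) and 3 (0.155) and DPAM-1 with NaCl replicates 1, 2 and 3 (0.0538, 0.159 and 0.105). SMT1 was at -0.24 (adjusted p = 0.0588) and passed without DPAM-1 replicate 2 (0.027) or replicate 1 of DPAM-1 with NaCl (0.0364). No gene of the 9 passed in the interaction of DPAM-1 with NaCl (edgeR 0, DESeq2 0, 0 at an unadjusted p under 0.05), where 0.499% of all genes were called and 5.69% had such an unadjusted p.

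**Figure D3:**
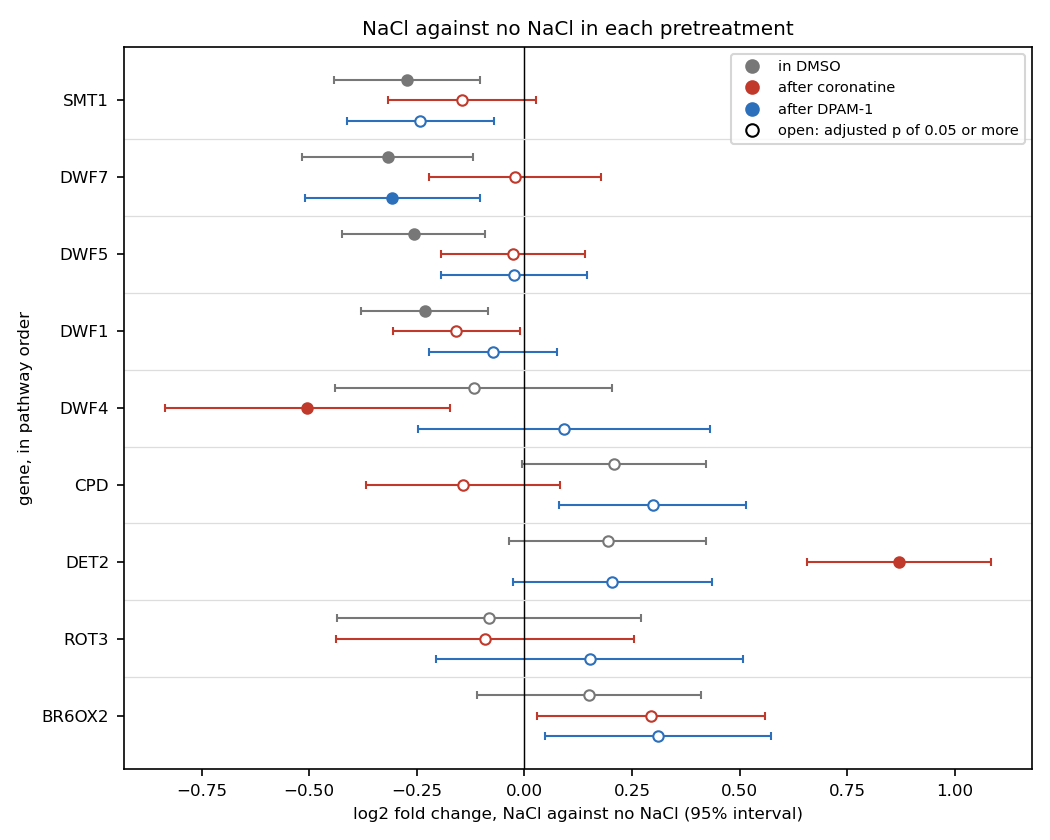
Log2 fold change of NaCl against no NaCl (horizontal axis) with its 95% interval for the 9 genes in DMSO (grey), after coronatine (red) and after DPAM-1 (blue), 3 libraries per group; filled points passed at an adjusted p under 0.05. The 4 sterol-step genes lie between -0.32 and -0.23 in DMSO, and DET2 stands apart at 0.87 after coronatine.

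Steps before and beside the 9 genes were read from lists of other pathway genes. In the mevalonate pathway, 5 of 10 measured genes rose with coronatine and 0 fell, with a median of 0.15. Of all genes 17.4% rose and 17.4% fell. HMG1 encodes an HMG-CoA reductase, the enzyme that controls entry into the pathway. It stood at 75.6 CPM ± 12.8 (SD, n = 3) in DMSO and 337 CPM ± 61.5 (SD, n = 3) with coronatine and so rose 4.45-fold (adjusted p = 9.5e-13). HMG2, also an HMG-CoA reductase gene, was not called, at -0.33 (adjusted p = 0.142) and under NaCl at -0.10 (adjusted p = 0.632). HMGS, the synthase of the reductase substrate, rose 2.95-fold (adjusted p = 6.99e-14). ACAT2, the thiolase before HMGS, had a log2 fold change of 0.52 (adjusted p = 6.32e-06). MVD1 (0.41) and IPP2 (0.30), a decarboxylase and an isomerase of later steps, rose too, but the IPP2 call ended in 6 of 16 alternatives, among them leaving out DMSO replicate 3 (adjusted p = 0.094) or coronatine replicate 1 (0.0733) or 2 (0.0575), and that of MVD1 with library totals (0.0513). Those of HMG1, HMGS and ACAT2 held in all 16. Under NaCl 6 rose and 0 fell, HMG1 by 5.06-fold and HMGS by 3.71-fold, where 23.8% of all genes rose and 24% fell. The weakest of these calls (adjusted p = 0.0217) ended with upper-quartile factors (0.617) and library totals (0.161). It also ended without replicate 1 or 2 of coronatine with NaCl (0.0652 and 0.112) or replicate 1 of DMSO with NaCl (0.0602). With upper-quartile factors 4 rose and 3 fell without NaCl, and with library totals 3 rose and 5 fell. The median of all genes was lower under both of these scalings, and the shares above are those of the main scaling.

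Of 17 other sterol genes measured, 2 rose and 4 fell with coronatine, with a median of -0.02. Of all genes 34.8% passed, 17.4% higher and 17.4% lower. With library totals 2 rose and 7 fell, but the median of all genes was then lower and the shares above are those of the main scaling. CYP710A2, a P450 that desaturates the sterol side chain and makes stigmasterol-type sterols, rose 5.76-fold to 49.9 CPM (log2 fold change 2.53 ± 0.14 SE, adjusted p = 2.81e-13). HYD1, a sterol isomerase, rose 1.57-fold (adjusted p = 1.59e-06). SMO1-2 (-0.45), 3BETAHSD/D2 (-0.44), FK (-0.32) and CYP51G1 (-0.29), enzymes that modify the sterol skeleton, fell. The calls of CYP710A2 and HYD1 held in all 16 alternatives. The 4 falls were close to the threshold. That of SMO1-2 ended without coronatine replicate 3 (adjusted p = 0.0699), that of 3BETAHSD/D2 also without DMSO replicate 1 or 2 (up to 0.0916), that of FK without DMSO replicate 2 (0.19) or coronatine replicate 2 (0.0507) or 3 (0.117), and that of CYP51G1 without DMSO replicate 2 or 3 or coronatine replicate 1 or 2 (up to 0.145). Under NaCl 4 rose and 3 fell, where 23.8% of all genes rose and 24% fell. The fall of CYP51G1 ended without replicate 1 or 3 of coronatine with NaCl (adjusted p = 0.105 and 0.108). It also ended without replicate 1 or 3 of DMSO with NaCl (0.103 and 0.0862). The rise of CPI1 ended with upper-quartile factors (0.0708) and library totals (0.628). Salt in DMSO lowered 5 of the 17 and raised 1, where 7.88% of all genes fell and 9.8% rose. Of the 5, FK and CPI1 were lost without DMSO replicate 2 (adjusted p = 0.106 and 0.0766) and without replicate 2 of DMSO with NaCl (0.0825 and 0.138), and CPI1 also without DMSO replicate 1 (0.0867) or replicate 3 of DMSO with NaCl (0.168). The methyltransferases SMT3 and SMT2, which act later than SMT1, fell by 0.87 and 0.71 on the log2 scale, and SQE3, a squalene epoxidase, rose by 0.75 (adjusted p = 4.69e-05), while its relative SQE1 fell by 0.45. With DPAM-1 against DMSO no gene of these lists passed by edgeR or DESeq2, without or under NaCl. At an unadjusted p under 0.05 there were 2 sterol genes and 0 mevalonate genes without NaCl, and 1 and 0 under it.

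**Figure D4:**
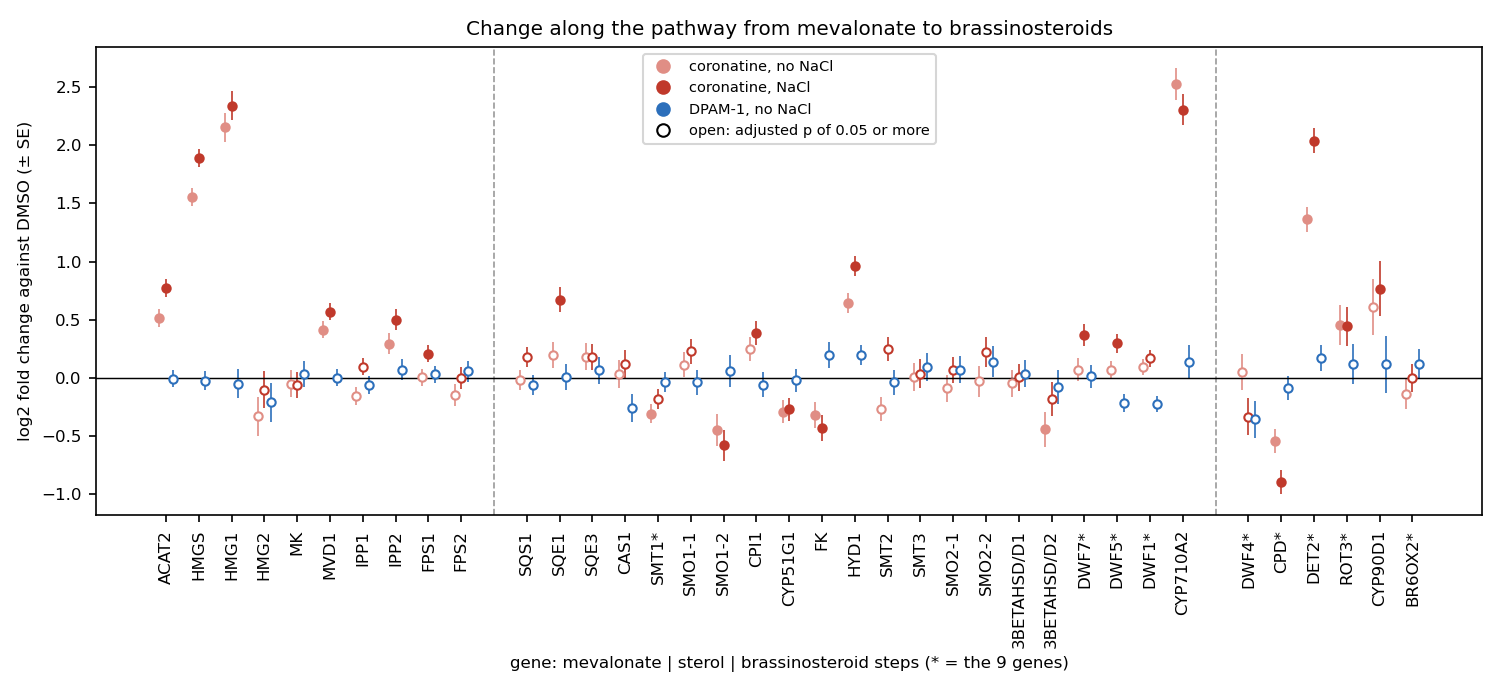
Log2 fold change against DMSO (vertical axis, ± SE) for the measured genes of the mevalonate, sterol and brassinosteroid steps, in pathway order along the horizontal axis, with coronatine without NaCl (pale red), coronatine under NaCl (dark red) and DPAM-1 without NaCl (blue), 3 libraries per group; filled points passed at an adjusted p under 0.05 and asterisks mark the 9 genes. HMG1, HMGS, CYP710A2 and DET2 lie above 1 with coronatine in both salt conditions.

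With coronatine without NaCl, where 17.4% of all genes rose and 17.4% fell, 2 of 5 measured genes of brassinosteroid inactivation rose. They were BEN1, a reductase-like protein (1.74-fold, adjusted p = 8.68e-07), and BIA1, an acyltransferase (1.81-fold, adjusted p = 0.00103). SOT12, a sulfotransferase that acts on brassinosteroids among other substrates, rose 5.14-fold with NaCl in DMSO (adjusted p = 8.98e-10). Its level was 12.9 CPM ± 3.24 (SD, n = 3) without NaCl and 66.3 CPM ± 11.7 (SD, n = 3) with it. After coronatine NaCl raised it to only 34.1 CPM ± 0.276 (SD, n = 3), and its interaction of coronatine with NaCl was -1.27 (adjusted p = 0.00186), opposite in sign to that of DET2. Of 4 measured regulators 2 fell with coronatine, where 17.4% of all genes did. BES1, the transcription factor named above, went from 57.4 to 37.5 CPM (log2 fold change -0.62, adjusted p = 1.76e-06) and under NaCl from 59.5 to 31.3 CPM (-0.92, adjusted p = 2.03e-09). PIL6, a light-signalling transcription factor, was at -0.38 (adjusted p = 0.00894, 0.0618 without DMSO replicate 3) and -0.80. BZR1, the relative of BES1, was at 0.03 without NaCl and 0.36 under it (adjusted p = 0.0174), a call lost with upper-quartile factors (0.173) and library totals (0.824), without replicate 2 or 3 of DMSO with NaCl (0.0515 and 0.0921) and without replicate 3 of coronatine with NaCl (0.136). With DPAM-1 against DMSO 0 of these 9 inactivation and regulator genes passed by edgeR or DESeq2, and 1 regulator had an unadjusted p under 0.05 without NaCl and 0 under it.

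The genes of the table most like DET2 over the 6 group means were found by the root mean square difference of centred log2 CPM. ACD1 (AT3G44880), the pheophorbide a oxygenase of chlorophyll breakdown, was nearest at 0.0608, in a pattern that for DET2 spans 2.23 on the log2 scale. Its group means were 13.8 CPM in DMSO, 36.3 CPM with coronatine and 66.3 CPM in coronatine with NaCl. AT5G49280 (0.0898) and AT2G46100 (0.0944) were next. For CPD the nearest were DJ1F (0.0290), AT4G16790 (0.0318) and HB16 (0.0361), with a CPD span of 0.90. For DWF4, with a span of 0.53, they were AT1G50910 (0.0506), AT1G64185 (0.0510) and GCS1 (0.0520). These are likenesses over 6 means and no test.

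Of the 9 genes, 4 overlap a neighbour at the 3′ end in TAIR10.1, where 3′-end reads fall, and the sources used here do not state whether counting used strand. DET2 shares 35 bases with CAC3 (AT2G38040) on the other strand. CAC3 fell with coronatine, by 0.37 on the log2 scale without NaCl (adjusted p = 0.00793) and by 0.40 under it (adjusted p = 0.00343), while DET2 rose. CPD shares 20 bases with MOS7 (AT5G05680), which was at -0.36 (adjusted p = 0.153) and -0.45 (adjusted p = 0.0519). DWF1 shares 20 bases with AT3G19810 on its own strand, and ROT3 83 bases with AT4G36370. Reads in these overlaps cannot be told apart, and their part in the values was not tested.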

How the data were processed

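RNA of 18 seedling libraries in 6 groups of 3 was sequenced by Lasy-Seq, grouped by the treatment labels. The submitters' processing notes name the TAIR10 build and the tools featureCounts, HISAT2, DESeq2, Trimmomatic and bcl2fastq, with no version or role. The authors deposited raw counts per gene. The deposited signal table equals these counts divided by 1 factor per library (relative spread of the ratio 9.71e-10) and served for that check only. Each of the 14229 genes had at least 30 reads in every library, so genes silent in any library are not analysed here.

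Counts were fitted with edgeR 4.0.16 (limma 3.58.1, R 4.3.3). The filter on low counts removed 0 genes, TMM factors lay between 0.847 and 1.13, and 1 quasi-likelihood model over all 6 groups gave 12 two-sided comparisons. Levels are CPM on TMM-scaled library sizes. Alternatives were DESeq2 1.42.0, other scalings, no filter or a mean count of at least 100, a replicate block, only the groups compared, and each library left out. A 2-group fit with the block and a fit without the DMSO and coronatine libraries numbered 3 were added after seeing the data. The script was tested on simulated data.

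The 9 genes and the other lists (79 genes, 62 of them in the table and used, 2 others dropped because the annotation names their codes differently) were chosen with earlier results of these data known. For each other list and comparison described, up to 3 called genes of smallest p in the direction with more calls and 1 in the other were named; further genes that make up a count of 5 or fewer were chosen after their values were seen. Same-numbered DMSO and coronatine libraries without NaCl deviated together (correlations 0.127 to 0.499). In all other same-numbered pairs the correlations lay between -0.155 and 0.0824. The labels name no pairing, and correlations between libraries with different numbers were not computed. Whether the numbers pair these libraries was therefore not tested, and the main fit held no replicate term. Reads are not independent molecules, and replicates differed by more than sampling noise. Genes were named, and upstream sequence and gene overlaps read, from RefSeq's TAIR10.1, matched by gene code. The count table holds no coordinates.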

Additional observations from a re-analysis of the deposited data

Results flagged for a closer look

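The response to NaCl differed between pretreatments for 4 genes of the pathway and its lists, by edgeR's test of the difference itself with Benjamini-Hochberg adjustment. The genes looked at were the 9, 17 other sterol, 10 mevalonate, 5 inactivation and 4 regulator genes, and CYP90D1. Of all genes 3.84% passed in the coronatine by NaCl interaction. In the comparison of the salt effects after coronatine and after DPAM-1, 4.04% did. The coronatine by NaCl interaction of DET2 was 0.676 on the log2 scale (adjusted p = 0.011), and its NaCl effect after coronatine exceeded that after DPAM-1 by 0.665 (adjusted p = 0.0133). The same values for SOT12 were -1.27 (adjusted p = 0.00186) and -0.802 (adjusted p = 0.0481). For SQE1 the NaCl effect after coronatine exceeded that after DPAM-1 by 0.562 (adjusted p = 0.0427), and for BES1 the difference was -0.46 (adjusted p = 0.025). Both DET2 values and the SOT12 interaction passed in all 21 alternatives. The other calls did not: that of SQE1 held in 7 of 21 (adjusted p up to 0.121), that of SOT12 against DPAM-1 in 11 (up to 0.136) and that of BES1 in 15 (up to 0.0735), and each of these 3 ended when single libraries were left out. No cause was tested.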

How the results depend on the processing

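The coronatine calls of DET2, CPD and SMT1 without NaCl held in all 16 alternatives (DET2 from 1.14 to 1.43, CPD from -0.77 to -0.44, SMT1 from -0.54 to -0.25), and those of DET2 and CPD under NaCl in all 14. The DET2 interaction held in all 21 (0.58 to 0.78, adjusted p at most 0.0377). Of 1755 single-gene values under an alternative, 1638 counted as the same. These kept their call and direction, or had no call in either fit and differed by at most the SD of log2 CPM within groups. Directions of values without a call in either fit were not compared. Of the others, 51 lost a call, 37 gained one, 25 moved by more than that SD without a call, and 4 with a call in either fit reversed. With library totals the reversed values were DWF5 at -0.029 and BR6OX2 at -0.33 for coronatine against DMSO under NaCl, and DWF5 at 0.023 and DWF1 at 0.067 for DPAM-1 against coronatine under NaCl. With library totals the count of the 9 genes called was 4 for NaCl after coronatine and 2 for the salt effect after coronatine against after DPAM-1. With only the groups compared it was 1 for NaCl in DMSO and 3 for NaCl after DPAM-1. Leaving out 1 library gave 1 to 3 for NaCl in DMSO, 1 to 3 for NaCl after coronatine, 0 to 3 for NaCl after DPAM-1 and 1 to 2 for the salt effects compared. The cause was not tested.

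With the replicate block the count for NaCl after DPAM-1 went to 0. The block changed no other call of the 9 genes. Levels near 8 CPM, those of DWF4 and ROT3, had the widest errors of the 9. Leaving out a library leaves 2 in that group, assumed to vary like the others.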
